A study of Caenorhabditis elegans with 2 samples.

Results

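The features described here are the microRNA genes of Caenorhabditis elegans and the chromatin immunoprecipitation (ChIP-seq) peaks beside them. Members were all genes with the biotype miRNA in the Ensembl annotation of the WBcel235 assembly, which is the ce11 assembly of the peak files, and there are 261 of them among 46890 annotated nuclear genes. A gene was called bound when the summit of a peak in the authors' conservative list lay within 500 bp of any annotated start of the gene, and 22 of the 261 met this rule. All worms were strain RW12264, in which CRISPR had inserted a TY1, EGFP and 3xFLAG tag at the gene Y53G8AR.9 on chromosome III, so the fusion stands at the gene's own locus. They were whole young adults of 64 hours, grown from synchronised starved larvae. Per the deposited description, chromatin was precipitated with an antibody against GFP, while the antibody label of the samples names Y53G8AR.9. The annotated product of Y53G8AR.9 is a protein with a C3H1-type (CCCH) zinc finger domain. The study has 1 group of 2 biological replicates, so it holds no comparison between conditions, and whole animals do not show in which tissue a peak arises.

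MicroRNAs are cut from hairpins in longer primary transcripts, first by Drosha in the nucleus and then by Dicer. The mature strand guides an Argonaute protein to messenger RNAs, mostly through its seed, bases 2 to 8 from the 5′ end, and genes with the same seed form a family whose members often act redundantly. In this animal lin-4 and let-7 time larval development, the mir-35 family is needed in the early embryo, and the mir-51 family is needed for embryonic development. Some microRNA genes lie in introns of protein-coding genes. For most members the annotated start of the gene is the end of the hairpin, not the start of the primary transcript. Exceptions are let-7 (X:14743590-14745321) and mir-8199 (II:2136552-2137329), whose annotated spans are longer than a hairpin. The starts of annotated mature arms also counted as starts.

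The mir-51 and mir-35 families held 7 of the 22 bound genes, and mature sequences of these families are printed here because they define the families by their shared seed. Capitals mark the seed, and all sequences were read from the WBcel235 genome (RefSeq) at the annotated arms. The 6 genes of the mir-51 family share the seed ACCCGUA, and mir-52, mir-53, mir-54 and mir-55 were bound (66.7%, against 8.43% of all microRNA genes).
mir-52: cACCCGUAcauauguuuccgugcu
mir-53: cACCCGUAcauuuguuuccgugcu
mir-54: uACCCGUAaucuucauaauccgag
mir-55: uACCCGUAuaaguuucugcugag
mir-51: uACCCGUAgcuccuauccauguu
mir-56: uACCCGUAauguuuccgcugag
The 8 genes of the mir-35 family share the seed CACCGGG, and mir-35, mir-36 and mir-37 were bound (37.5%).
mir-35: uCACCGGGuggaaacuagcagu
mir-36: uCACCGGGugaaaauucgcaug
mir-37: uCACCGGGugaacacuugcagu
Of the genes with the strongest peaks, mir-45 carries the seed of mir-44, mir-61 and mir-247, and mir-80 carries that of mir-81 and mir-82.
mir-45: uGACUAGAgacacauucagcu
mir-80: uGAGAUCAuuaguugaaagccga

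MicroRNA genes were bound about as often as protein-coding genes. The 22 bound genes make 8.43% of the 261 (exact 95% Clopper-Pearson interval 5.36% to 12.5%), and the background share, that of protein-coding genes by the same rule, was 6.52% (1303 of 19973), which lies within this interval. Among all annotated nuclear genes the share was 4.63% (2172 of 46890), and 2.48% of the bases of the nuclear genome lay within 500 bp of a summit. The shares were higher for tRNA genes (27.6%), snRNA genes (28.7%) and snoRNA genes (28.6%). Further noncoding classes were not counted separately, so the place of microRNA genes among all of them is not known. The lowest bound of their intervals was 21.1%, above the upper bound for microRNA genes. The intervals allow for counting error alone, as if each gene were independent, and neighbouring genes can share a peak.

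Because hairpins of a cluster lie close together, the 22 genes shared 19 peaks. Counted as loci, with hairpins at most 1000 bp apart taken as 1 locus, 18 of 221 (8.14%) were bound, and 2 of the 22 loci with several hairpins were among them. By chromosome the bound genes were 6 of 33 on I, 5 of 49 on II, 4 of 27 on III, 2 of 50 on IV, 0 of 28 on V and 5 of 74 on X. The count of 0 on V allows a share of up to 12.3%, so a lower share there was not detectable with so few genes. The share of all genes bound on each chromosome was not computed, so these counts do not show a pattern particular to microRNA genes.

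Of the 261 genes, 109 lie inside a protein-coding gene on either strand, 68 lie beside one, with a gap of at most 1000 bp, and 84 are isolated. Inside, 12 were bound (11.0%, exact interval 5.82% to 18.4%), beside 6 (8.82%, 3.31% to 18.2%) and isolated 4 (4.76%, 1.31% to 11.7%). The 3 intervals overlap, and the difference was not tested. Of the 12 bound genes inside a coding gene, 6 lie on the host's strand, of 76 such genes, and 6 only opposite to it, of 33. These last 6 include mir-35, mir-36 and mir-37, and mir-54 and mir-55, which share peaks. The 6 on the host's strand include mir-55b (F09A5.15), called through the peak of mir-54 and mir-55, so that peak counts on both sides. A protein-coding start within 500 bp was the neighbour of 7 of the 19 summits, and for 12 summits no coding start was that near. The same share over all conservative summits was not computed, so these counts do not show a trait particular to microRNA genes.

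**Figure D1:**
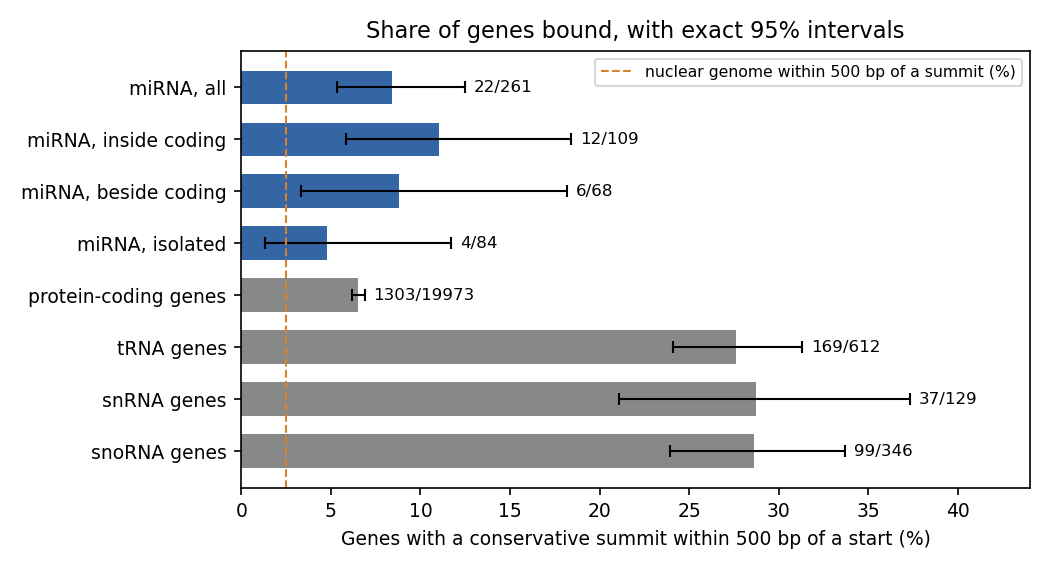
Share of genes with a conservative summit within 500 bp of an annotated start, in percent, for all microRNA genes, their 3 contexts and 4 other gene classes; whiskers are exact 95% intervals, and figures beside the bars are bound genes over all genes. The bar for all microRNA genes (8.43%) ends near that for protein-coding genes (6.52%), and the bars for tRNA, snRNA and snoRNA genes end above 27%; the dashed line is the 2.48% of the genome near a summit.

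The signal of a peak is the authors' peak-caller value, in units whose scale is not stated, and it ranks peaks within 1 list only. The 19 peaks had signals from 17.3 to 136 with a median of 87.7, against a median of 70.4 over all 2742 conservative peaks, and 13 of the 19 were at or above that median. None was among the strongest of the list: the highest, at mir-45, ranked 312. In each replicate's lists the highest-signal region overlapping a peak gave 27.0 to 67.4 in replicate 1 and 24.6 to 64.6 in replicate 2. Both replicates' thresholded lists covered 8 of the 19 peaks (42.1%), only one of these lists covered 3, and neither covered 8 (42.1%). Over all conservative peaks, both lists covered 29.1% and neither covered 42.4%. Replicate values below are from the thresholded list unless said to be from the ranked list, which also holds regions under the authors' threshold.

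**Figure D2:**
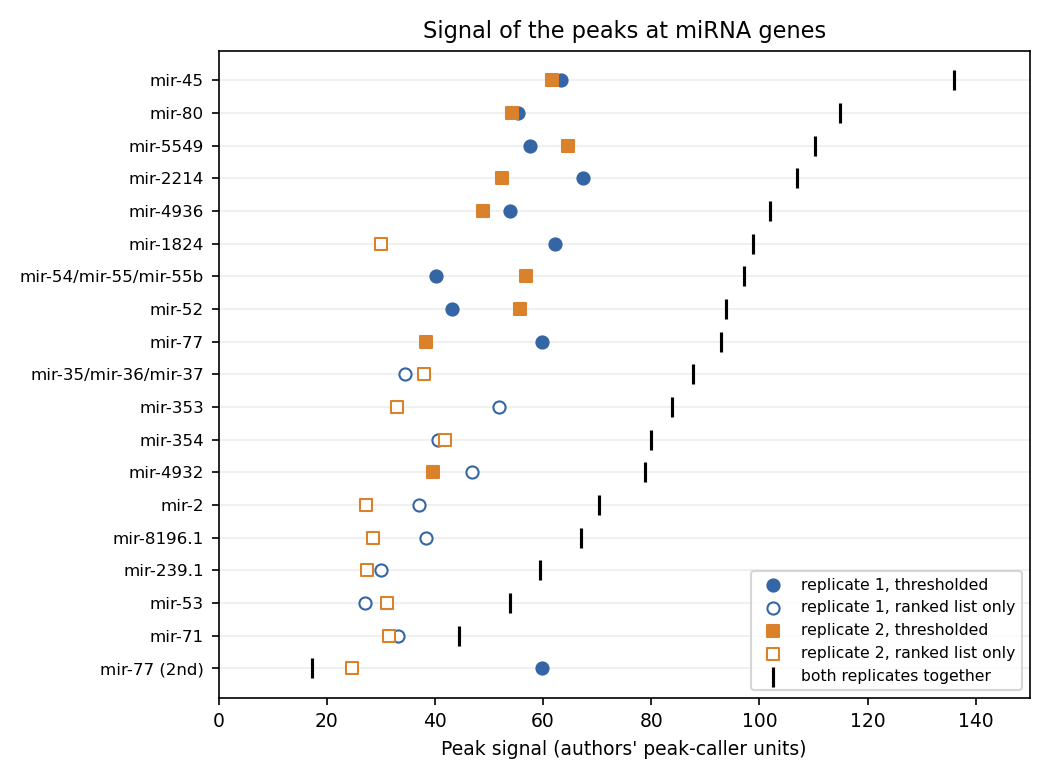
Signal of the 19 peaks at microRNA genes, in the authors' peak-caller units, for both replicates together (black ticks), replicate 1 (circles) and replicate 2 (squares); filled symbols are in the replicate's thresholded list and open symbols in its ranked list only. The upper peaks, from mir-45 (136) down to mir-77 (92.9), are filled in both replicates except at mir-1824, and from mir-35 (87.7) downward most symbols are open; the second mir-77 summit overlaps the same replicate 1 peak as the first.

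The mir-51 family was met at 3 peaks near 4 of its 6 genes. At mir-52 (IV:14034008-14034107, plus strand), an isolated gene whose nearest coding gene is 8488 bp away, the signal was 93.9 for both replicates together, 43.1 in replicate 1 and 55.7 in replicate 2. This summit lay in the hairpin itself, 15 bp from its 5′ end and 1 bp from the start of the mature miRNA. The mir-52 peak was 104 bp wide, and the other 18 were 320 bp wide. It is printed here because it shows the mature sequence under the peak (ce11, IV:14033939-14034042, plus strand, with the part of the mature arm within the peak in capitals).
mir-52 peak: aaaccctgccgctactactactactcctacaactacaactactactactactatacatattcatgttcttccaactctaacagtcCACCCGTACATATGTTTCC

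At mir-54 (X:13144996-13145094, minus strand) the signal was 97.2, with 40.2 in replicate 1 and 56.8 in replicate 2. The summit was 245 bp upstream of mir-54, the first hairpin of the cluster mir-54, mir-55 and mir-56, and 415 bp upstream of mir-55. The cluster lies antisense in an intron of F09A5.3, whose start, the nearest coding start, was 3738 bp from the summit. The predicted gene F09A5.15 (mir-55b), annotated on the strand opposite mir-55 and over the same bases, met the rule through this peak, at 456 bp from its arm, and it did not with the end of the gene as the only start. The third hairpin, mir-56, was 552 bp from the summit and so just outside the rule. A second conservative peak, of 48.4, lay past mir-56, with its summit 1169 bp downstream of the 5′ end of mir-54 and within 500 bp of no hairpin.

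At mir-53 (IV:11027593-11027691, minus strand) the signal was 53.8, and the overlapping regions, 27.0 in replicate 1 and 31.1 in replicate 2, were in the ranked lists only. Its summit was 45 bp upstream of the hairpin. The neighbouring gene mir-51 (IV:11026013-11026112, minus strand) was not bound by the conservative list, where its nearest summit was 548 bp away. The ranked list nevertheless has a region there with a signal of 98.5 and its summit 64 bp from a start of mir-51, but with an irreproducible discovery rate (IDR, a measure of whether replicate data sets rank the same peak alike) of 0.593, where the lowest score of the conservative list corresponds to 0.01. Each replicate's own thresholded list holds a peak at mir-51, of 43.9 in replicate 1 and 50.2 in replicate 2, with summits 143 bp apart. Replicate 1 has a further ranked region of 13.0 over the same place. The other series-wide thresholded list counts mir-51 and mir-56 as bound, so by that list all 6 genes of the family met the rule.

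**Figure D3:**
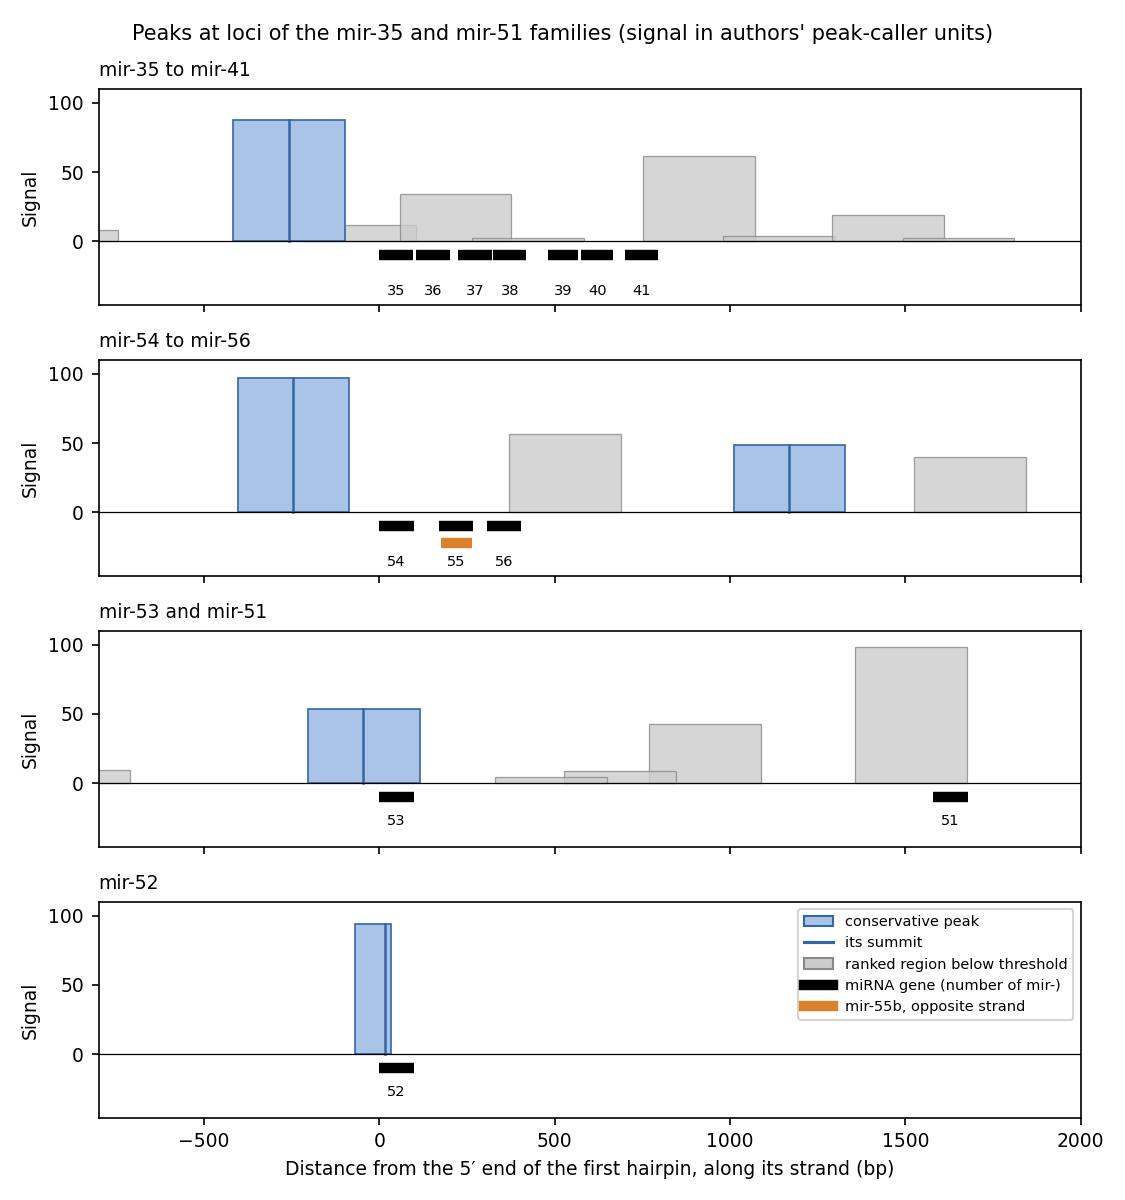
Maps of 4 loci of the mir-35 and mir-51 families: the x axis is the distance in bp from the 5′ end of the first hairpin along its strand, and the height of each box is the signal of a region (authors' units), with conservative peaks in blue, their summits as lines, and regions that are in the ranked list but not in the conservative list in grey. A blue peak has its summit upstream of the first hairpin at mir-35 (256 bp), mir-54 (245 bp) and mir-53 (45 bp) and in the hairpin at mir-52; a second blue peak of 48.4 lies past mir-56, with its summit 1169 bp from the 5′ end of mir-54; the tall grey box at mir-51 has a signal of 98.5.

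The mir-35 family had a single conservative peak, upstream of its main cluster. The cluster holds mir-35 to mir-41 on the plus strand and lies antisense in an intron of Y62F5A.9. The signal was 87.7, and the summit was 256 bp upstream of mir-35 (II:11537608-11537704), 361 bp upstream of mir-36 and 481 bp upstream of mir-37, the last being the bound gene just inside the 500 bp limit. The next hairpin, mir-38, was 581 bp away and just outside. Both replicates had this region in the ranked list only, with 34.5 in replicate 1 and 37.9 in replicate 2. Beyond the cluster's other end the ranked list had a region of 61.6 (IDR 0.0556), 151 bp from a start of mir-41, with a thresholded 41.9 in replicate 1 and a ranked 16.8 in replicate 2. The other series-wide thresholded list counts mir-39, mir-40 and mir-41 as bound, besides mir-35, mir-36 and mir-37. The family's remaining gene, mir-42, is in another cluster 9146 bp from the nearest conservative summit, and its highest ranked region, of 27.6, had an IDR of 0.346.

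The strongest peak near a microRNA gene was at mir-45 (II:11880944-11881039, minus strand), which belongs to the mir-44 family. Its signal was 136, with 63.3 in replicate 1 and 61.7 in replicate 2. The summit was downstream of the hairpin, 374 bp from its 5′ end, and lay toward the topoisomerase gene top-2, which is 356 bp from mir-45. The near edge of top-2 lay within the peak and closer to the summit than the hairpin did. The nearest coding start was 3283 bp from the summit, so that edge is not a start. The peak can therefore not be given to mir-45 alone. The other members of that family, mir-44, mir-61 and mir-247, were not bound. Of these, mir-61 had a ranked region of 52.2 with an IDR of 0.101.

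At mir-80 (III:8865270-8865367, minus strand), an isolated gene of the mir-58 family whose loss has been linked to dietary restriction, the signal was 115, with 55.4 in replicate 1 and 54.2 in replicate 2. The summit was 188 bp upstream of the hairpin and 11573 bp from the nearest coding start. Of the 7 genes of the mir-58 family list found in the annotation, mir-80 alone was bound. That list was fixed by name and differs from the 6 genes that share the seed GAGAUCA. These are mir-80, mir-81, mir-82, mir-58.2, mir-2209.1 and Y73B6A.17, and mir-80 alone of them was bound. The listed gene mir-58.1, which is not among those with this seed, lies inside the gene phkb-1. It had a ranked region of 47.0 with an IDR of 0.0142, with ranked values of 28.8 in replicate 1 and 22.9 in replicate 2.

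The other isolated bound genes had weaker peaks. At mir-239.1 (X:11792445-11792542), studied for effects on lifespan and stress resistance, the signal was 59.4, with ranked values of 30.1 in replicate 1 and 27.4 in replicate 2, and the summit was 472 bp downstream of the 5′ end. At mir-8196.1 (X:2328994-2329124) it was 67.1, with ranked values of 38.3 and 28.6 in replicates 1 and 2, and the summit lay 138 bp from the 5′ end, just past the hairpin, which overlaps the 3′ end of the long noncoding RNA gene linc-154 on the same strand. Neither gene was bound by the other series-wide thresholded list.

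Among the genes beside coding genes, mir-77 (II:12519268-12519367, plus strand) had summits on either side of its hairpin. The upstream summit, 103 bp before the hairpin, had a signal of 92.9, with 59.8 in replicate 1 and 38.3 in replicate 2. The downstream summit had 17.3, and it overlapped the same replicate 1 peak and a ranked region of 24.6 in replicate 2. The snoRNA gene T21B4.20 starts within 500 bp of these summits, and the start of the chemoreceptor gene srh-70 was 306 bp from the upstream summit. The peak can therefore not be given to mir-77 alone.

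At mir-5549 (III:6971976-6972085, minus strand) the signal was 110.2, with 57.5 in replicate 1 and 64.6 in replicate 2. The summit was 2 bp upstream of mir-5549 and 166 bp from the start of rfc-4, which encodes a subunit of the clamp loader of DNA replication. At mir-2214 (III:7278715-7278778, plus strand), in an intron of B0361.11 on the same strand, the signal was 107, with 67.4 in replicate 1 and 52.5 in replicate 2. Its summit was 19 bp upstream of the hairpin and 1097 bp from the nearest coding start. At mir-4936 (III:3249151-3249260, plus strand) the signal was 102, with 54.0 in replicate 1 and 48.9 in replicate 2. That summit lay in the hairpin, 243 bp from the start of Y53G8AL.4. These 3 genes were bound in each replicate's own list.

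The window of 50 bp on either side of the mir-4936 summit held the letters GGTTCGA followed, after any 2 bases, by CC, the full form of the box B promoter element that RNA polymerase III uses inside tRNA genes, although the nearest annotated tRNA start is 53810 bp away. The full form was looked for after this window had been seen. It was in 1 of 19 windows at microRNA genes (5.26%), 60 of 2742 at all conservative summits (2.19%) and 44 of 145 at summits within 500 bp of a tRNA start (30.3%), with either strand counted. The window is printed because it shows this match beside the mature arm, which is in capitals (ce11, III:3249199-3249299, plus strand).
mir-4936 window: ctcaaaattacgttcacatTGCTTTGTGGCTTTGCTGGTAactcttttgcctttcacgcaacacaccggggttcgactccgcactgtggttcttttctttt
Of the 4 motifs sought in all windows on either strand, the box B core GGTTCGA was in 1 of 19 windows at microRNA genes (5.26%) and in 3.21% of all 2742. TATAAA was in 3 (15.8%, against 5.73%), at mir-2214, mir-353 and mir-53. GAGAGAG was in 2 (10.5%, against 5.65%), at mir-35 and mir-53, and GATAA in 3 (15.8%, against 16.2%). The windows had a median GC content of 44.6%, equal to that of all conservative summits, and ranged from 33.7% at mir-354 and the second mir-77 summit to 63.4% at mir-35.

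**Figure D4:**
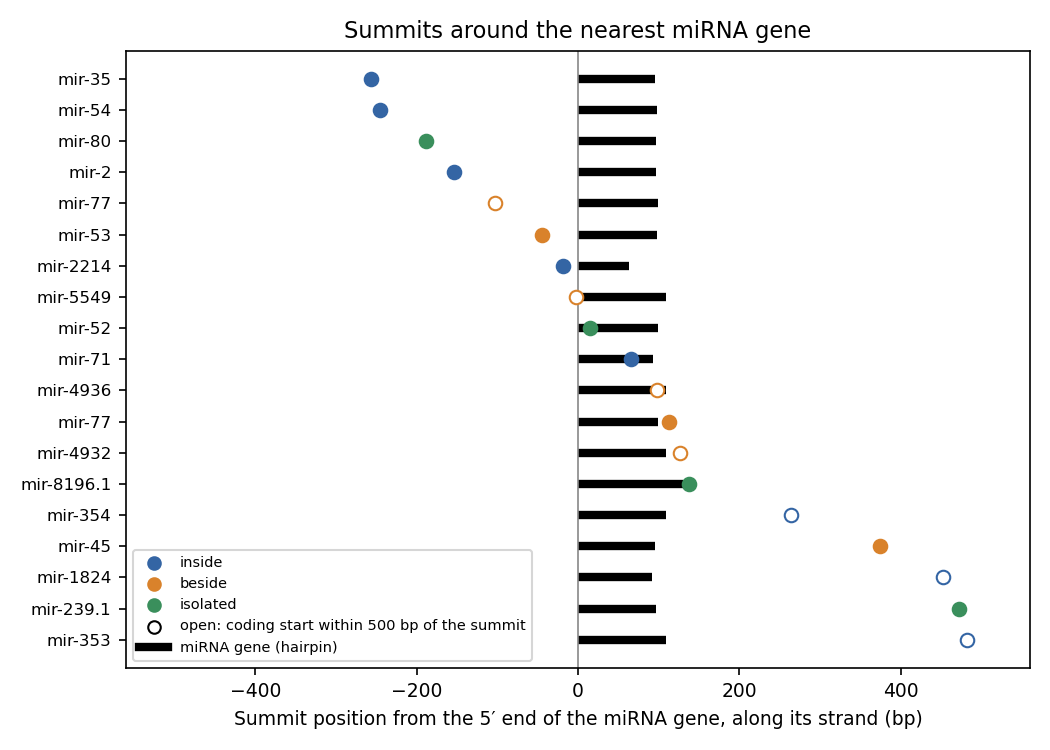
Position of each of the 19 summits, in bp from the 5′ end of the nearest bound microRNA gene along its strand; black bars are the hairpins, colours give the context (inside, beside or isolated), and open circles have a protein-coding start within 500 bp of the summit. Of the 19, 8 lie upstream, 3 in the hairpin and 8 past it, and 5 of the 7 open circles lie in or past the hairpin.

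The remaining bound genes are on chromosome I, and for 4 of these 6 a coding start was nearer to the summit than any annotated start of the microRNA gene was. The hairpin mir-354 (I:14468382-14468491) lies in the ribosomal protein gene rps-20, and its peak of 80.0, with ranked values of 40.6 in replicate 1 and 41.9 in replicate 2, had its summit 13 bp from the start of Y105E8A.14. The hairpin mir-353 (I:4585874-4585983) lies in an intron of the ribosomal protein gene rpl-24 (rpl-24.1 in Ensembl), and its peak of 83.9, with ranked values of 51.8 and 33.0, was 82 bp from the start of D1007.10. At mir-4932 (I:9512307-9512416) the signal was 78.8, with a ranked 46.8 in replicate 1 and a thresholded 39.7 in replicate 2, and the summit was 19 bp from the start of the kinesin gene klp-16. At mir-1824 (I:13513955-13514047) it was 98.8, with a thresholded 62.2 in replicate 1 and a ranked 30.04 in replicate 2, and the summit was 117 bp from the start of Y87G2A.18. Counting only summits with no nearer coding start leaves 18 bound genes, without these 4. At mir-4932 the summit lay just past the hairpin's 3′ end.

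Both remaining genes are in introns of ppfr-1, a phosphatase regulatory subunit gene, on its strand. At mir-71 (I:9379927-9380020), known for promoting long life, the signal was 44.5, with ranked values of 33.1 in replicate 1 and 31.6 in replicate 2, and the summit was in the hairpin. At mir-2 (I:9372768-9372865) it was 70.3, with ranked values of 37.1 and 27.2, and the summit was 154 bp upstream. The nearest coding start was 9630 bp from the mir-71 summit and 13944 bp from that of mir-2. Neither gene was bound in a replicate's own list.

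Of the genes that were not bound, 149 had a ranked region with its summit within 500 bp, with signals from 3.05 to 98.5 and a median of 26.4, and 90 had none. The median over all 87350 ranked regions was 18.7. For 8 of them a conservative summit lay beyond 500 bp but within 1000 bp of a start. Over all 261 genes the median distance from the nearest conservative summit was 15671 bp.

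The timing microRNAs were among the genes that were not bound. None of the 7 genes of the let-7 family met the rule (0 of 7, which allows a share of up to 41.0%). For let-7 itself the highest ranked region had a signal of 37.9 and an IDR of 0.0681, with ranked values of 22.4 in replicate 1 and 18.7 in replicate 2, and the nearest conservative summit was 1828 bp away. Its relatives mir-84 (42.8, IDR 0.149), mir-241 (43.8, IDR 0.272) and mir-794 (46.7, IDR 0.0549) had ranked regions under the threshold. Those of mir-48 (20.2, IDR 0.571), mir-793 (14.6, IDR 0.791) and mir-795 (14.01, IDR 0.791) were weaker. The gene lin-4 also had a ranked region under the threshold (20.6, IDR 0.477). No ranked region lay within 500 bp of lsy-6, which sets left and right identity of taste neurons. The muscle gene mir-1 had a ranked region of 22.8 with an IDR of 0.791. None of the 5 genes of the mir-63 family was bound. Of these, mir-229 had a ranked region of 56.2 (IDR 0.0598), with ranked values of 22.9 in replicate 1 and 30.3 in replicate 2, and mir-64 had one of 48.8 (IDR 0.0485). In all, 4 of the 25 well-studied microRNAs were bound, namely mir-2, mir-71, mir-77 and mir-239.1 (16.0%, exact interval 4.54% to 36.1%). The shares of 8.43% over all microRNA genes and 6.52% over protein-coding genes lie within this interval, and within what the counts of 0 for the let-7 and mir-63 families allow (up to 41.0% and 52.2%). Both shares lie below the exact intervals of the mir-51 family (22.3% to 95.7%) and, by little, of the mir-35 family (8.52% to 75.5%). Those intervals treat genes as independent, but mir-54 and mir-55 share a peak, as do mir-35, mir-36 and mir-37. The lists were also chosen with earlier results of these data known, and no difference was tested.

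Among the protein-coding genes of the pathway, 4 of 23 processing and silencing factors were bound by the same rule (17.4%, exact interval 4.95% to 38.8%), and the background share of 6.52% lies within this interval. The peak of vig-1, which encodes a component of the silencing complex, had a signal of 289.5, with 129 in replicate 1 and 156 in replicate 2, and lay 414 bp from its start. At xrn-2, an exonuclease that degrades microRNAs, the signal was 115.0, with 52.2 in replicate 1 and 70.4 in replicate 2. At drsh-1, which encodes Drosha, the signal was 97.6, with 52.1 in replicate 1 and 46.9 in replicate 2, and the summit was 30 bp from a start. At dcs-1, a decapping enzyme gene, the signal was 89.8, with 54.9 in replicate 1 and no overlapping thresholded peak in replicate 2. The other 19, among them the Dicer gene dcr-1, the Argonaute genes alg-1 and alg-2 and pash-1, the gene of Drosha's partner, were not bound. Of 15 established target genes found in the annotation, 1 was bound (6.67%, exact interval 0.169% to 31.9%), near the background share of 6.52%. This gene was vav-1, a target of mir-61, with a signal under the median of 70.4 and no overlapping thresholded peak in either replicate. The targets lin-14, lin-28, lin-41 and hbl-1 were not bound.

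In replicate 1's own thresholded list 16 microRNA genes were bound (6.13%), where 3.72% of protein-coding genes were, and in that of replicate 2 it was 12 (4.60%), where 3.41% of protein-coding genes were. Of the 22 genes, 10 were bound in each of these lists and 10 in neither. The 10 in each were mir-45, mir-52, mir-54, mir-55, mir-55b, mir-77, mir-80, mir-2214, mir-4936 and mir-5549. Under all 10 alternative definitions, mir-52, mir-54, mir-77, mir-80, mir-2214, mir-4936 and mir-5549 stayed bound.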

How the data were processed

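Per the deposited text descriptions, the authors' peak lists on ce11 derive from the replicates' alignments and further inputs that are not described there. Aligner and peak caller: not given in the sources used here. Per the labels, chromatin was sonicated to 200 to 800 bp. The deposited signal of a peak is the caller's value, of unstated scale. The deposited score is the authors' IDR on an integer scale (lowest in the conservative list 830, an IDR of 0.01), and the ranked lists hold the authors' −log10 IDR. The conservative list has 2742 peaks, the other series-wide thresholded list 2713, and replicates 1 and 2 have 1393 and 1276. No read counts were used, so depth is unknown.

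Summits were placed on Ensembl release 115, with starts taken from every annotated transcript, mature arms included. All 261 members matched a RefSeq gene, whose symbols are used. Each replicate's value is that of the highest-signal region overlapping the peak by at least 1 bp, whose own summit may lie elsewhere. Every bound gene is named, with fixed lists counted whole. Shares carry exact 95% Clopper-Pearson intervals, which cover counting error only; nothing was tested across genes. The gene finder was tested on simulated summits. Members and lists were chosen with earlier results of these data known. Alternatives changed the window, start, peak list, position, assignment and context. Python 3.11.15, pandas 2.3.3 and SciPy 1.17.1 were used.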

Additional observations from a re-analysis of the deposited data

How the results depend on the processing

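The count of 22 bound genes fell to 13 with a 250 bp window and to 10 with only peaks that overlap a thresholded peak of each replicate. It ran from 12 to 16 when a replicate was left out, that is, in the other replicate's own list. The genes also changed: replicate 1's list kept 11 of the 22 and added 5, and that of replicate 2 kept 11 and added 1. The other series-wide thresholded list gave 24, keeping 18 of the 22 and adding 6. The window of 1000 bp gave 30, and the other alternatives gave 17 to 26. Counting loci, an alternative chosen after seeing the data, gave 18. The 12 bound genes inside coding genes became 5 with 250 bp, 19 with 1000 bp, 4 with peaks found in each replicate, 6 with coding genes of the same strand only, and 4 to 9 without a replicate. The 6 beside coding genes became 5 to 6 without a replicate. The 4 isolated genes became 2 with the other series-wide list, 2 with peaks at or above the median signal, 2 with peaks found in each replicate, 2 when either replicate was left out, and 11 with coding genes of the same strand only, where hosts and neighbours on the opposite strand no longer count. No paired analysis was possible because the study has 1 group. Depth is unknown, so whether more reads would bring ranked regions past the threshold cannot be told.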

Other observations

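Bound genes were mostly among the microRNAs with low numbers. Of the 61 genes from mir-1 to mir-90 with let-7, lin-4 and lsy-6, 13 were bound (21.3%, exact 95% interval 11.9% to 33.7%), against 3 of 76 from mir-124 to mir-800 (3.95%, 0.822% to 11.1%) and 6 of 123 from mir-1018 upward (4.88%, 1.81% to 10.3%). This split was chosen after the bound genes had been seen and carries no test, and 7 of the 13 belong to the mir-35 and mir-51 families. The 13 also include the predicted gene mir-55b (F09A5.15), which met the rule through the peak of mir-54 and mir-55. A single peak likewise accounts for mir-35, mir-36 and mir-37, so the 13 genes are not independent.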
